A study of Mus musculus with 24 samples.

Results

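In the liver of A/J mice, 1916 regions of chromosomes 1 to 19 held a FAIRE-seq peak in the list of the high fat diet and none in the lists of the control diet and of the diet reversal. They were chosen from the union of 6 deposited peak lists, in which peaks that shared at least 1 bp were joined into 49364 regions, and are called A/J HF-only regions below. The same rule applied to the other 2 diets gave 2291 Control-only and 1466 Reversal-only regions in A/J, and 28711 regions were open on all 3 A/J diets. Since presence and absence in the A/J lists chose the regions, their number is a description: they were 3.88% of all regions and 5.93% of the 32316 regions with an A/J HF peak.

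The groups were livers of A/J and of C57BL/6J mice, a pair of inbred strains, after 16 weeks of control diet (Control), 16 weeks of high fat diet (HF), or 8 weeks of high fat diet followed by 8 weeks of control diet (Reversal). Each strain and diet had 2 FAIRE libraries but 1 peak list, which leaves no spread between libraries to set a difference against, and the comparisons below are given without a test. Sex, age, make-up of the diets and the number of animals are not given in the sources used here. No group was sampled at 8 weeks of high fat diet, so that the shorter high fat feeding of the Reversal mice and their return to control diet cannot be told apart.

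FAIRE-seq recovers the part of crosslinked chromatin that stays soluble because few nucleosomes hold it, and its peaks mark promoters, enhancers and other regulatory DNA in an open state. Liver is where excess dietary fat is stored, oxidised or exported, and many of its enhancers are bound by lipid-sensing nuclear receptors. C57BL/6J mice are widely used because they become obese and insulin resistant on a high fat diet, whereas A/J mice are comparatively resistant. Inbred strains also differ at many regulatory sites because of DNA sequence.

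The A/J HF-only regions were mostly regions that were open in C57BL/6J liver, on any diet. Of the 1916 regions, 1445 (75.4%, 95% Wilson interval 73.4 to 77.3) held a peak in at least 1 C57BL/6J list and 1029 (53.7%, 51.5 to 55.9) in all 3. The share was 19.6% (18.1 to 21.3) among the A/J Control-only regions and 12.1% (10.6 to 13.9) among the Reversal-only regions. The excess of HF-only over Control-only regions was 55.8 percentage points (Newcombe interval 53.2 to 58.2), and over Reversal-only regions 63.3 points (60.6 to 65.7). A peak in all 3 C57BL/6J lists was found in 51.4% of all regions and 57.1% of those with an A/J peak. The share with at least 1 C57BL/6J peak was 71.9% over regions with an A/J peak and 83.2% over those with an A/J HF peak, so that single-diet regions of Control and Reversal lay far below these values and HF-only regions near them. Intervals cover counting error over regions, which are not replicates of a diet.

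**Figure D1:**
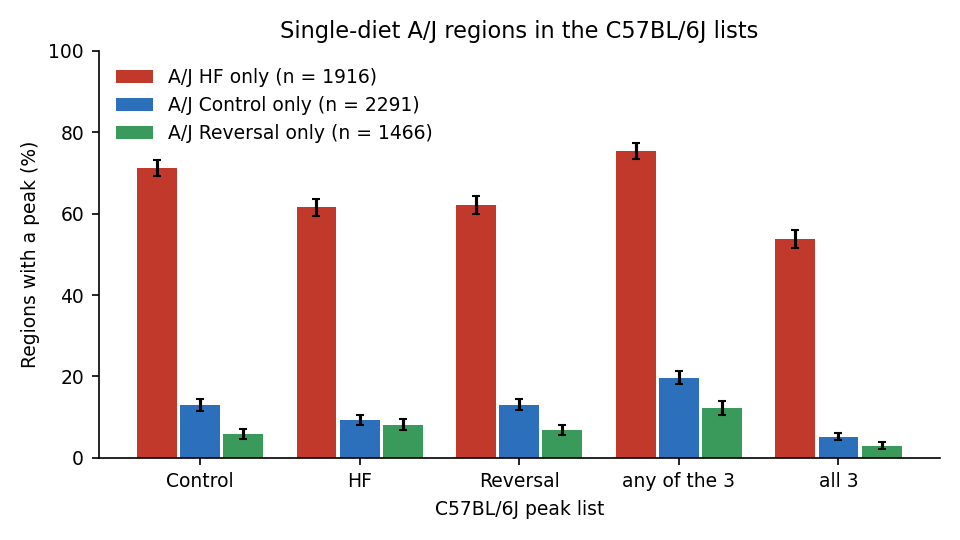
Share of A/J single-diet regions (percent, y axis) with a peak in each C57BL/6J list, in any of the 3 and in all 3 (x axis), with 95% Wilson intervals as bars. HF-only regions stand at 53.7% to 75.4% in every column, Control-only and Reversal-only regions at 19.6% or lower.

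Presence in C57BL/6J was not part of the rule, although C57BL/6J peaks entered the union and could join A/J peaks: merging the A/J lists alone gave 1944 regions. The share in the C57BL/6J lists was not highest on high fat diet. A peak was present in 71.2% of HF-only regions in the C57BL/6J Control list (69.2 to 73.2), in 61.5% in the HF list (59.3 to 63.7) and in 62.1% in the Reversal list (59.9 to 64.3). HF minus Control share was -9.71 points (-11.4 to -8.01 by a normal approximation), and -5.79 points when all lists were limited to the length of the shortest. A C57BL/6J HF peak without a Control peak was found in 53 of the regions (2.77%), where the share was 8.09% over all 49364 regions and 7.25% over the 39145 with an A/J peak. The reverse, a C57BL/6J Control peak without an HF peak, was found in 239 regions (12.5%), beside 11.8% over all regions and 3.55% over those with an A/J peak. For Control-only regions the corresponding shares were 3.01% and 6.72%. HF minus Control share in C57BL/6J was -9.71 points in HF-only and -3.71 points in Control-only regions, a difference of -6.00 points (-8.11 to -3.88). It turned to 0.32 when A/J HF peaks alone were limited to the strongest 80% of their list. That limit also raised the Control-only regions from 2291 to 3103. With every list limited to its strongest 80% the difference was -5.34 points.

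A peak in 1 or 2 of the C57BL/6J lists was found in 416 HF-only regions (21.7%). No C57BL/6J peak was found in 471 HF-only regions (24.6%), a Control peak alone in 127 (6.63%), Control and Reversal peaks in 112 (5.85%), and Control and HF peaks in 97 (5.06%). In Control-only regions the shares in this order were 80.4%, 3.80%, 2.92% and 1.05%. In regions open on all 3 A/J diets they were 14.8%, 0.88%, 1.55% and 0.90%. A C57BL/6J Control peak alone was found in 4387 of all 49364 regions. The shares of the pairs, and of 1 or 2 lists together, over all regions were not counted. A C57BL/6J HF peak alone, which is the pattern of the A/J regions themselves, was found in 31 (1.62%, 1.14 to 2.29). The share over all regions, also those without an A/J peak, was 3.97%. It was 1.83% (1.36 to 2.47) in Control-only and 3.34% (2.54 to 4.39) in Reversal-only regions, so that a low share was not particular to HF-only regions. A Reversal peak alone was seen in 27 (1.41%), and HF and Reversal peaks without a Control peak in 22 (1.15%). These shares were 3.71% and 1.18% in Control-only regions, and 2.58% and 5.15% in regions open on all 3 A/J diets. A C57BL/6J Reversal peak alone was found in 1676 of all 49364 regions.

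The regions were weak in the list that chose them. In the A/J HF list, ranked by the authors' signal from the strongest peak, they lay from 49.4% to the end of the list, with a median of 89.3%. None of 13193 HF regions in the strongest 40% of that list was HF-only, and 1 of 3227 at 40 to 50%. The share rose to 4.82% at 60 to 70%, 16.8% at 80 to 90% and 28.7% among the weakest peaks. All but 1 of the regions held a single A/J HF peak. Weak ranks were not particular to HF-only regions. At 90 to 100% of their own list lay 900 of 1916 HF-only, 1454 of 2291 Control-only and 918 of 1466 Reversal-only regions. In the strongest 60% lay 51 HF-only, 2 Control-only and 2 Reversal-only regions. By these counts HF-only regions were the least weak of the A/J single-diet classes.

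In the C57BL/6J lists the same regions were spread over strong and weak ranks. Their median rank was 50.8% in C57BL/6J Control (1365 regions with a peak), 63.1% in HF (1179) and 67.1% in Reversal (1190), and the highest stood at 1.17%, 6.23% and 10.9% of these lists. The 1029 regions open in all 3 C57BL/6J lists had median ranks of 44.9%, 60.4% and 63.9%, weaker than the medians of 37.7% to 40.4% of all 25381 regions open on all C57BL/6J diets, and stronger than the 58.3%, 71.4% and 76.3% of the 3012 of these without any A/J peak. Of the 1029, 916 (89.0%, 87.0 to 90.8) ranked highest in the Control list. That share was 49.8% over the 25381 and 77.1% over the 3012. A stronger C57BL/6J peak went with a stronger A/J HF peak, as a description across regions: Spearman's rho was 0.42 with C57BL/6J Control ranks, 0.33 with HF and 0.35 with Reversal ranks, over the same numbers of regions. The points of each relation share their libraries.

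**Figure D2:**
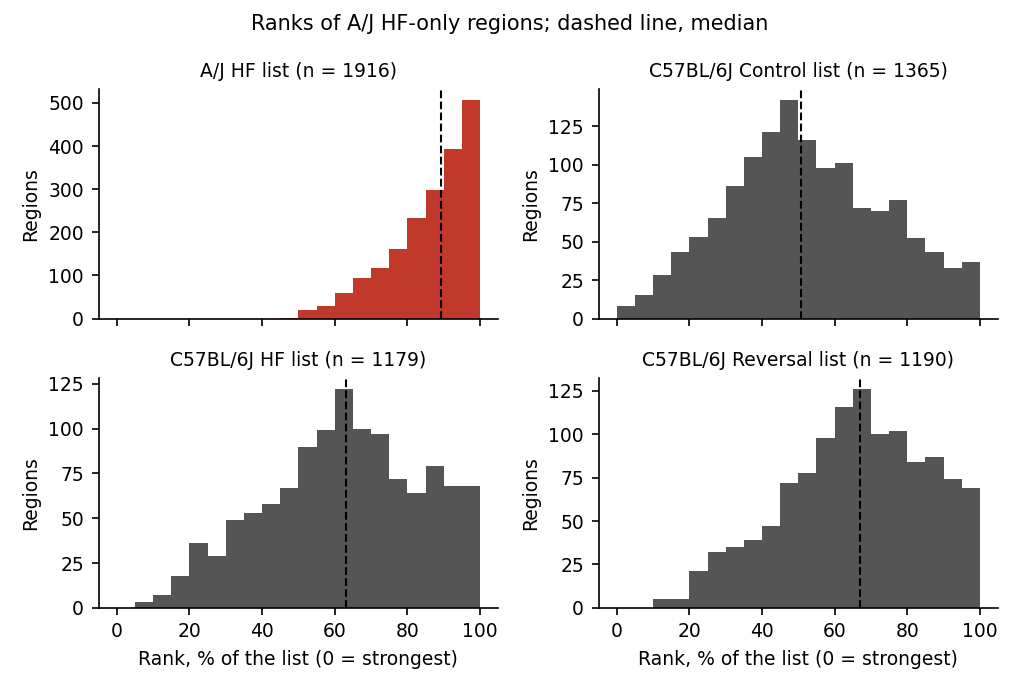
Number of A/J HF-only regions (y axis) by rank within the A/J HF list and the 3 C57BL/6J lists, as percent of the list with 0 as the strongest (x axis); the dashed line is the median. The A/J HF ranks pile up at the weak end around 89.3%, while C57BL/6J ranks spread over the lists with medians of 50.8%, 63.1% and 67.1%.

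Presence in C57BL/6J was most complete where the A/J HF peak was strongest. All 51 HF-only regions in the strongest 60% of the A/J HF list were open on every C57BL/6J diet (93.0 to 100). Of the 19465 regions open on all 3 A/J diets in that part of the list, 89.5% were, although these came from the whole of it and the 51 began at 49.4%. At ranks of 60 to 70%, 152 of 154 (98.7%) held at least 1 C57BL/6J peak, at 70 to 80% 250 of 279 (89.6%), at 80 to 90% 425 of 532 (79.9%), and at 90 to 100% 567 of 900 (63.0%). Weaker A/J HF peaks thus held fewer C57BL/6J peaks.

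At equal rank past 60% of the list, HF-only regions stood above the comparison classes. In the strongest 60% the difference from regions open on all 3 A/J diets was 2.86 points, with an interval of -4.15 to 3.10. Ranks were not matched there, because HF-only regions began at 49.4% of the list and the others came from that whole part. At 70 to 80% of its own list a Control-only region held a C57BL/6J peak in 26.8% of 153 cases and a Reversal-only region in 6.72% of 119. Regions open on all 3 A/J diets whose A/J HF peak ranked at 70 to 80% held one in 63.3% of 2639 cases, 26.3 points below the HF-only regions (21.8 to 29.9). In the weakest band the difference from regions open on all A/J diets was 25.9 points (21.9 to 29.8), and that from Control-only regions 45.0 points (41.2 to 48.7).

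**Figure D3:**
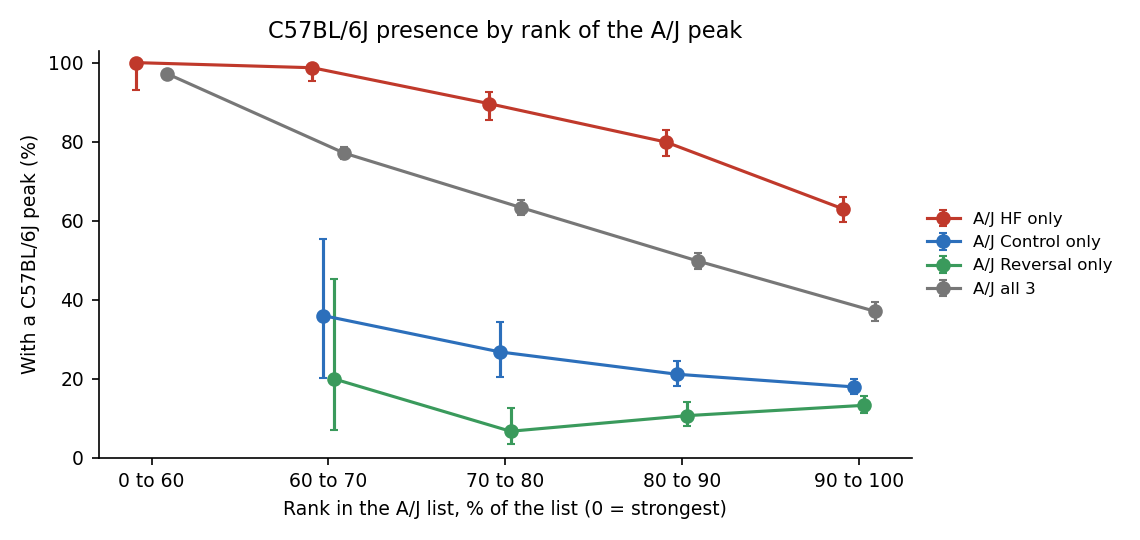
Share of regions with a peak in any C57BL/6J list (percent, y axis) by rank of the A/J peak in its own list (x axis, 0 the strongest; the HF list for regions open on all 3 diets), with 95% Wilson intervals and bands of at least 15 regions. HF-only regions fall from 100% to 63.0% and stay above regions open on all 3 A/J diets from 60% of the list on.

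Seen from C57BL/6J, the strongest regions missing from A/J Control and Reversal were nearly all in the A/J HF list. Such regions were few. The strongest 10% of the C57BL/6J Control list held 3486 regions open on all C57BL/6J diets, and 3455 of these (99.1%) were open on all 3 A/J diets. Among regions open on all C57BL/6J diets and without an A/J Control or Reversal peak, absences that the rule also used, those in the strongest 10% of the C57BL/6J Control list held an A/J HF peak in 23 of 25 cases (92.0%). The share was 78.0% (71 of 91) at 10 to 20%, 50.6% (118 of 233) at 20 to 30%, 31.9% at 40 to 50% and 9.55% among the weakest. Over the strongest 40% it was 403 of 826 (48.8%, 45.4 to 52.2).

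In the strongest 40% of the C57BL/6J Control list the same count for the other A/J lists stayed near 0. Of such regions in the strongest 40% without A/J HF and Reversal peaks, 1 of 424 held an A/J Control peak (0.24%, 0.042 to 1.32), and of those without A/J Control and HF peaks, 3 of 426 held an A/J Reversal peak (0.70%, 0.24 to 2.05). At weaker ranks the A/J Control share rose, to 4.04% at 60 to 70% and 7.25% at 80 to 90%. The A/J Reversal share was 1.98% and 1.92% there. Among the weakest 10% A/J Control and HF were not clearly apart. The share was 13.4% for A/J Control (22 of 164, 9.03 to 19.5) and 9.55% for A/J HF (15 of 157, 5.88 to 15.2), with overlapping intervals. For A/J Reversal it was 4.05% (6 of 148, 1.87 to 8.56). That interval overlapped the one of HF and lay below the one of Control.

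**Figure D4:**
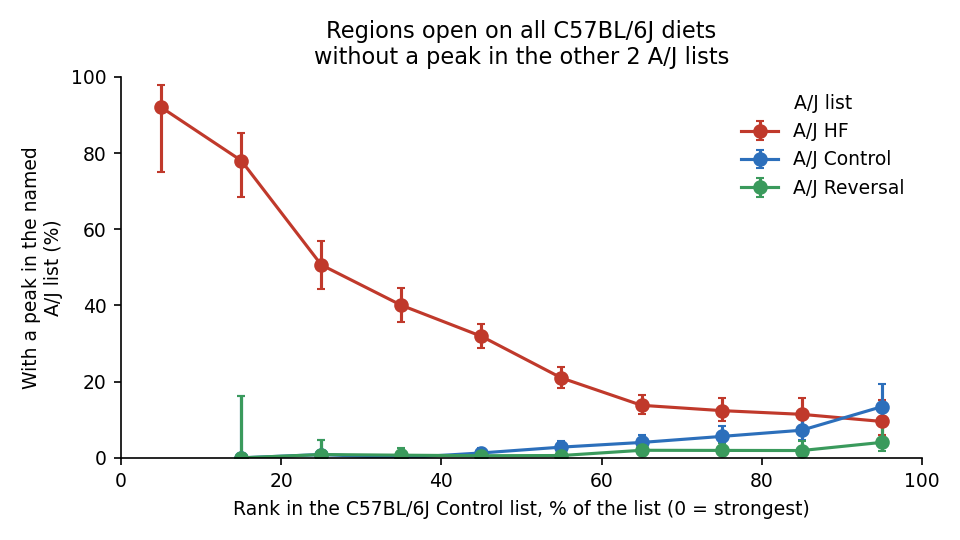
Regions open on all C57BL/6J diets without a peak in the other 2 A/J lists: share with a peak in the named A/J list (percent, y axis) by rank in the C57BL/6J Control list (x axis, 0 the strongest), with 95% Wilson intervals and points of at least 20 regions. The A/J HF line falls from 92.0% to 9.55%, while the Control and Reversal lines lie under 3% in the stronger 60% of the list.

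The A/J HF list also stood apart from the other A/J lists in regions that were not HF-only. Regions open on all 3 A/J diets and in no C57BL/6J list, 4242 in number, ranked 10.1 points weaker in the HF than in the Control list at the median, and 77.2% of them were weaker there. The corresponding values for Reversal against Control were 0.51 points and 52.0%. In regions open in all 6 lists the median difference of HF from Control was 0.58 points. These sets were not matched in rank: the median A/J Control rank was 28.9% in regions open in all 6 lists and 68.0% in the 4242. Of the 3072 regions open on A/J Control and Reversal but not HF, 2441 (79.5%) held no C57BL/6J peak and 20.5% held at least 1. At least 1 was held by 71.9% of all regions with an A/J peak. The share without one was 37.1% for A/J Control and HF without Reversal, and 53.1% for HF and Reversal without Control. It was as high in Control-only regions, at 80.4%, and higher in Reversal-only regions, at 87.9%. In the 1 list of A/J on high fat diet, most HF-only regions thus held a C57BL/6J peak, and most regions missing from it alone held none. Regions open on all 3 A/J diets without a C57BL/6J peak mostly ranked weaker there. Regions open in all 6 lists were not stronger there as a body: 56.3% of them ranked weaker in HF than in Control. The lists carry no reads, so that a response of A/J chromatin to the diet and DNA of the other strain among the A/J HF libraries cannot be told apart.

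Single-diet regions of C57BL/6J differed among themselves in the same count. Of 1961 C57BL/6J HF-only regions 58.4% (56.2 to 60.6) held an A/J peak, of 1676 Reversal-only regions 67.0% (64.7 to 69.2), and of 4387 Control-only regions 14.4% (13.4 to 15.5). These lie below the 79.3% of all regions that hold an A/J peak. A peak in all 3 A/J lists was found in 46.5% of the HF-only, 44.2% of the Reversal-only and 5.79% of the Control-only regions of C57BL/6J.

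The strongest regions illustrate the pattern. Positions are in mm9, the assembly of the lists, and are given 1-based, on the assumption, from the layout of the lists, that their starts count from 0. The highest A/J HF signal was that of a region on chromosome 1 from 111744238 to 111744578, at rank 16786 of 33963, with ranks of 11974 in C57BL/6J Control, 18045 in HF and 17491 in Reversal. The next, on chromosome 2 from 100078412 to 100078825, had rank 17361 in A/J HF and ranks of 5814, 9207 and 10737 in the 3 C57BL/6J lists. A region on chromosome 14 from 102959905 to 102960340 stood out for its C57BL/6J ranks: it was peak 415 of 35465 in C57BL/6J Control, 2078 of 33371 in HF and 3569 of 32727 in Reversal, while its A/J HF rank was 17547. The nearest A/J Control or Reversal peak to it lay 392516 bp away. All of the 10 regions with the highest A/J HF signal were open on all C57BL/6J diets and ranked highest there on Control, between 1.17% and 34.4% of the list. Among them were regions on chromosome 13 from 43063287 to 43063638, chromosome 4 from 38187289 to 38187708 and chromosome 6 from 19078396 to 19078808.

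Regions without any C57BL/6J peak had weaker A/J HF peaks, with a median rank of 94.2% against 83.8% for those open on all C57BL/6J diets. The strongest lay on chromosome 5 from 15136589 to 15136915, at rank 21740 and 1404 bp from an A/J Control or Reversal peak. It was followed by chromosome 17 from 31032472 to 31033095, at rank 22864, and chromosome 13 from 65453175 to 65453579, at rank 24070. The strongest region open on HF alone in both strains lay on chromosome 8 from 19719369 to 19720192, with rank 22213 in A/J HF and 27647 in C57BL/6J HF, and only 84 bp from the nearest A/J Control or Reversal peak. The next of this kind, on chromosome 8 from 26457484 to 26457729, had ranks of 24610 and 31936 and no such peak within 71416 bp. Of those with a C57BL/6J Control peak alone, a region on chromosome 8 from 6168026 to 6168268 had the highest signal, at rank 22348 in A/J HF and 23998 in C57BL/6J Control.

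The rule excluded overlap with peaks of the other A/J lists, and the distance to them varied. The median distance to the nearest A/J Control or Reversal peak was 25947 bp. Within 500 bp of one lay 166 regions (8.66%), within 1000 bp 233 (12.2%), and within 10000 bp 691 (36.1%). These distances were not counted for other classes of regions, so that they have no background. Summits coincided with those of C57BL/6J: the A/J HF summit lay a median of 6 bp from the C57BL/6J summit in each of the 3 lists, and within 50 bp in 96.1% of 1365 regions for C57BL/6J Control, 96.0% for HF and 95.6% for Reversal. In regions open on all A/J diets whose A/J HF peak ranked past 60%, which had somewhat wider peaks, the median was 10 bp and 89.7% lay within 50 bp of the C57BL/6J Control summit.

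The regions were narrow. The merged regions had a median width of 337 bp (176 to 3319), and their A/J HF peaks 279 bp, against 647 bp for regions open on all 3 A/J diets. At 70 to 80% of the A/J HF list the median peak width was 280 bp in HF-only regions and 321 bp in those open on all A/J diets, and at 90 to 100% it was 266 and 274 bp. The widest region lay on chromosome 8 from 126063959 to 126067277, with A/J HF rank 32669 and C57BL/6J Control and Reversal peaks, and the narrowest on chromosome 5 from 39886826 to 39887001, with no C57BL/6J peak.

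HF-only regions were found on all 19 chromosomes, at uneven shares. They made up 9.27% of A/J HF regions on chromosome 3 (7.85 to 10.9) and 8.68% on chromosome 18 (6.98 to 10.7), but 4.06% on chromosome 11 (3.38 to 4.86) and 4.55% on chromosome 19 (3.49 to 5.92), beside 5.93% over all 19. Chromosomes 11 and 19 are rich in genes. Among A/J HF peaks past 60% of the list the order held for chromosome 3, at 22.3%, and chromosome 11, at 10.6%. Between 68.7% and 83.5% of the HF-only regions of each chromosome held a C57BL/6J peak, and the highest A/J HF signal per chromosome lay between 0.196 and 0.262 on the authors' scale.

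**Figure D5:**
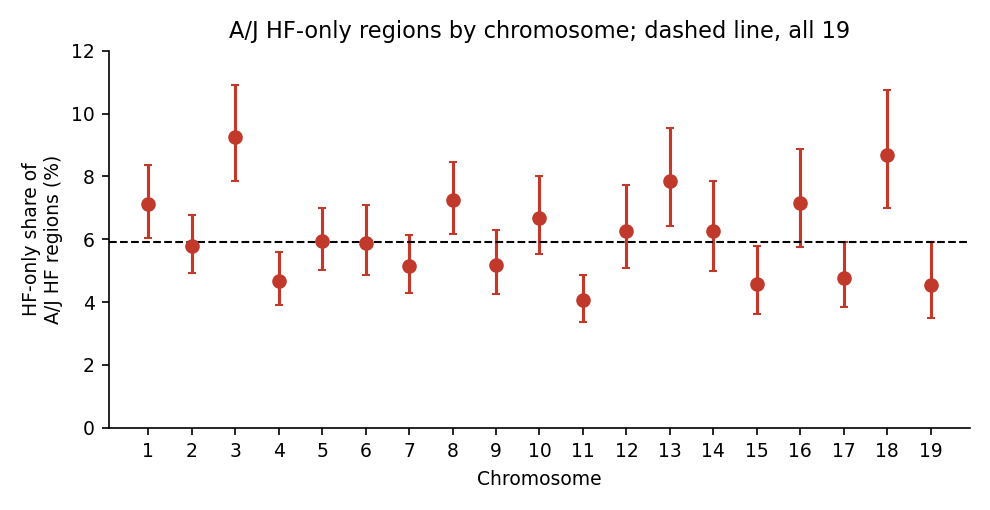
HF-only share of A/J HF regions (percent, y axis) for each of chromosomes 1 to 19 (x axis), with 95% Wilson intervals; the dashed line is the share over all 19, 5.93%. Chromosomes 3 and 18 lie highest, at 9.27% and 8.68%, and chromosome 11 lowest, at 4.06%.

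The regions were scattered, apart from a few stretches. A region's nearest neighbour of the same class lay at a median of 379944 bp, and 94 regions (4.91%) had one within 10000 bp. In windows of 5 Mb with at least 20 A/J HF regions, 395 in number, the median HF-only share was 5.81%. The window on chromosome 5 from 15000001 to 20000000 held 15 HF-only regions among 22 HF regions, with 0 Control-only and 2 Reversal-only regions, and 6 of the 15 had a C57BL/6J peak. On chromosome 8 from 15000001 to 20000000 there were 22 among 76, of which 12 had a C57BL/6J peak, beside 6 Control-only regions. These windows were chosen after their values were seen.

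At the edge of the lists the regions depend on small differences in rank. The weakest 3 HF-only regions shared rank 33954 of 33963 in A/J HF. One of them, on chromosome 10 from 115246661 to 115247045, ranked at 45.0% of the C57BL/6J Control list, and the other 2, among them a region on chromosome 1 from 162714353 to 162714556, had no C57BL/6J peak. Just outside lay a region on chromosome 13 from 62979515 to 62979806, whose A/J Control peak was at rank 36401 of 36410, and one on chromosome 1 from 136003320 to 136003615, whose Reversal peak was at rank 35315 of 35332. The peak names count 150636 peaks for A/J HF, 137787 for Control and 116089 for Reversal, of which the lists hold 22.5%, 26.4% and 30.4%. A region without a peak can therefore still have been open below the limit of its list.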

How the data were processed

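FAIRE-seq was run on liver of 2 mouse strains and 3 diets, with 2 libraries per group. Per the submitters' processing notes the assembly was mm9, and Bowtie2, TopHat and DESeq2 were used, without versions or the step each served. Nothing in the labels or files states the peak caller, its filters or whether libraries were pooled. The 6 deposited lists hold position, summit and signal of every peak in order of falling signal. The authors' scale for this signal is not stated, and it served to rank peaks within a list only. Strain and diet of a list are known from its name. For the Reversal samples the diet tag and the treatment protocol disagree on the weeks of control diet (16 against 8), and the protocol was followed. The depth of the libraries is unknown here.

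Peaks of chromosomes 1 to 19 were joined at 1 bp of overlap, and a region took the best rank of its peaks in each list. Shares have 95% Wilson intervals and differences Newcombe intervals in percentage points; the difference of paired shares has a normal approximation. All cover counting error only. Regions were counted with pandas 2.3.3 and the overlap alternative with bedtools 2.31.1; joining and intervals were tested on simulated data. No test was run, with 1 list per group. The regions, comparisons and alternatives were chosen with earlier results of these data known. Regions named were the 10 with the highest A/J HF signal, the 3 highest of each C57BL/6J pattern, the 2 widest and 2 narrowest, and those at the list limits, of which some are given. No genome or gene positions in mm9 were at hand, so that genes, sequences and the deposited expression tables were not used here.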

Additional observations from a re-analysis of the deposited data

Results flagged for a closer look

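Outside the 19 chromosomes analysed, chromosome X held 138 regions with a peak in the A/J HF list only, against 22 Control-only and 16 Reversal-only regions. They were 21.6% of the 639 A/J HF regions there, where the share on chromosomes 1 to 19 was 5.93%. Of the 138, 129 held a C57BL/6J peak and 102 held one on all C57BL/6J diets, against 6 and 3 of the 22. Chromosome Y held 20 A/J HF-only regions (40.8% of 49 A/J HF regions), all open on all 3 C57BL/6J diets, and 0 Control-only or Reversal-only regions. These counts drew attention because they come from data that the comparisons above leave out and exceed those of the A/J control diet. The numbers of all peaks on X were 671 in A/J HF, 549 in Control and 534 in Reversal, and between 955 and 1365 in the C57BL/6J lists. On Y, too, each C57BL/6J list held more peaks than any A/J list. The share with a C57BL/6J peak over all A/J HF regions of X or Y was not counted. Whether HF-only regions of X or Y differ from that share was thus not tested.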

How the results depend on the processing

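No paired analysis was possible because the lists hold no values per library, and for the same reason no replicate could be left out. The share with a C57BL/6J peak, 75.4%, was 78.2% with peaks joined across gaps of 500 bp, 72.5% with lists of equal length, 93.6% with the strongest 80% of the A/J HF list, and 68.8% without the C57BL/6J Control list, an alternative chosen after seeing the data. Over the other 7 alternatives it stayed between 72.5% and 93.6%, beside 19.7% to 28.6% for Control-only regions. With the strongest 80% of the A/J HF list alone, fewer regions qualify by construction, and 484 remained. Control-only regions rose from 2291 to 3103, because regions whose A/J HF peak was cut could enter that class. The HF minus Control difference in C57BL/6J was -4.55 points. Its contrast with this changed set of Control-only regions reversed to 0.32 points. The median rank was then 71.7% and the median width 350 bp. Lists of equal length gave -5.79 points, a median rank of 85.7% and a width of 344 bp. With the strongest 80% of every list the contrast with Control-only regions was -5.34 points, the median rank 71.7% and the width 368 bp. The width was 279 bp both when merging the 3 A/J lists alone and at 50% overlap of the smaller peak. The number of regions was between 1398 and 2313 in the other alternatives. The lists' own limits, not known in reads, bound what absence of a peak can show.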
